A study of Mus musculus with 8 samples.

Results

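The 10 genes described here encode enzymes of sphingolipid metabolism, chosen by symbol: Smpd1, Smpd3, Sptlc1, Sptlc2, Cers2, Cers6, Degs1, Ugcg, Asah1 and Sgpl1. All 10 were found among the 11784 genes of the liver table, 8 under these symbols and 2, Cers2 and Cers6, under the older symbols Lass2 and Lass6. Livers came from male C57BL/6J mice moved at 9 weeks of age from chow to an amino acid defined diet, either the Control diet (TD.140711, 4 mice) or the Low AA diet (TD.140712, 4 mice), which derives less of its energy from amino acids and more from carbohydrate. All 8 mice stayed on the diet for about 4 months and were killed after an overnight fast of about 16 hours, so both groups were fasted. Poly(A) RNA was sequenced from each liver, and values are scaled read counts, which are read counts adjusted between mice and rounded to whole numbers by the authors. Differences are Low AA minus Control on the scale of log2(value + 1), which understates the change of low genes, and p-values are from limma, adjusted by the Benjamini-Hochberg method over all 11784 genes with a threshold of 0.05.

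Sphingolipids are built on a long-chain base made from the amino acid serine and a fatty acyl-CoA, usually palmitoyl-CoA. Serine palmitoyltransferase makes the first product, ceramide synthases attach a second fatty acid, and a desaturase then gives ceramide, from which sphingomyelin and glycosphingolipids are made. Ceramide is also released again by sphingomyelinases, broken down to sphingosine by ceramidases, and finally leaves the pathway when sphingosine 1-phosphate is cleaved. In liver, ceramides are studied for their links to insulin action and fat storage.

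None of the 10 enzymes passed the threshold between the diets in limma, where 0.399% of all genes did. At an unadjusted p under 0.05 there were 4 of 10, namely Smpd3, Cers6, Sgpl1 and Sptlc1, against a background of 11.8% of all genes. The 10 were chosen with earlier results of these data known, so this contrast is not independent of them. Smpd3 had about 0.328 times the Control mean on the Low AA diet, Cers6 had 1.83 times, Sgpl1 1.22 times and Sptlc1 1.17 times. Sgpl1 was the only one of the 10 whose values did not overlap between the diets, as was the case for 6.81% of all genes. The median log2 fold change of the 10 genes was 0.06, beside 0.00 over all genes, with 8 above 0 and 2 below. Of all 11784 genes, 5955 were above 0 and 5829 below. Among the 8, Sptlc2, Degs1, Smpd1 and Asah1 lay close to 0, at 0.02 to 0.07.

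**Figure D1:**
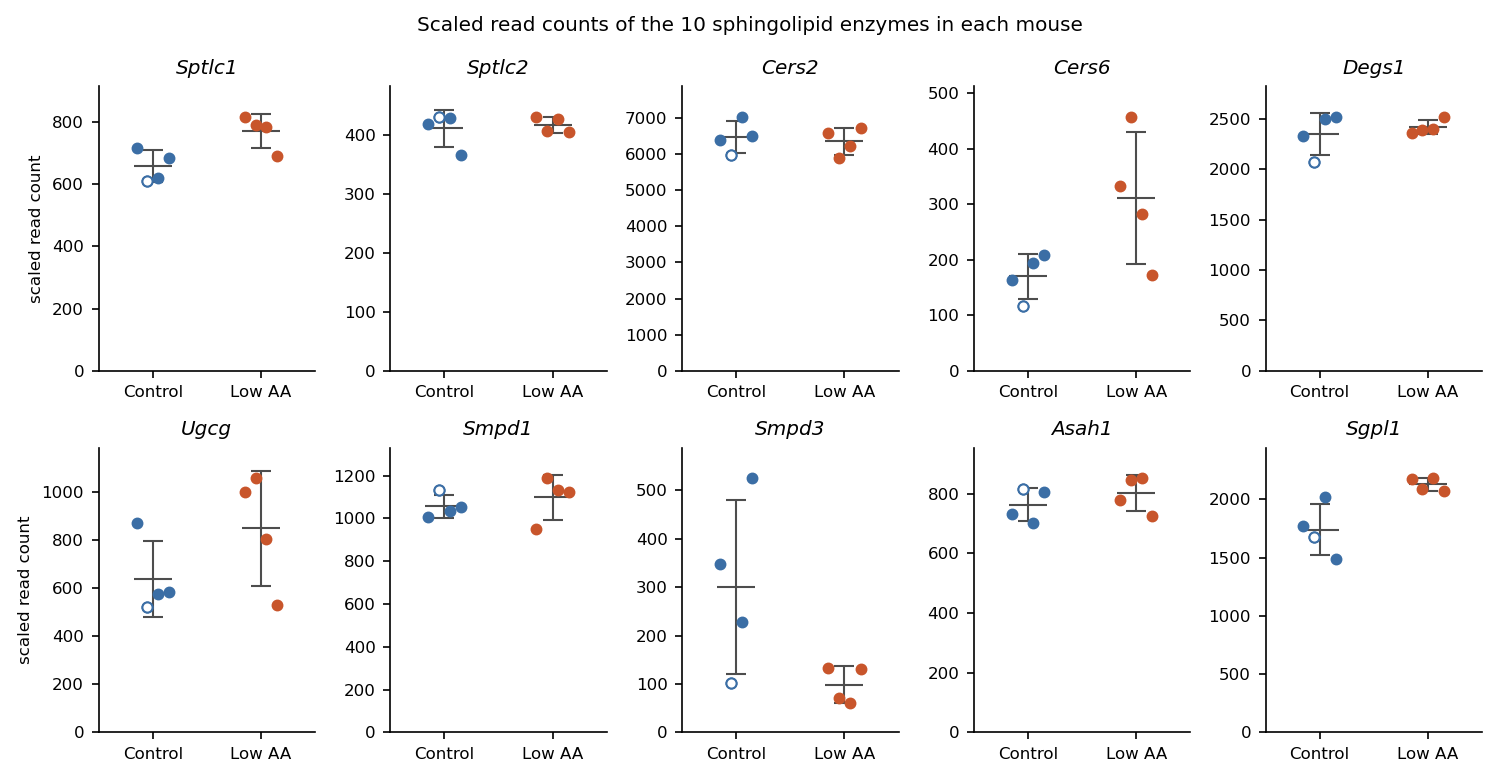
Scaled read counts (vertical axes, starting at 0) of the 10 enzymes in each of 4 Control mice (blue) and 4 Low AA mice (orange), with the mean and SD as bars and Control mouse F2212 as an open circle. Sgpl1 is separated between the diets, at 1490 to 2024 in Control and 2074 to 2184 in Low AA mice, while Smpd3 of F2212, at 103, lies among the Low AA values of 60 to 133.

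Column totals after scaling ranged from 28361406 to 29485422 on the Control diet and from 27876664 to 30799385 on the Low AA diet, so that the true depth is unknown. Control mouse F2212 stood apart, with a scaled read count of 36587 for the pancreatic elastase gene Cela1, against 130 to 288 in the other 7 mice. Cela1 was the only one of 7 pancreas markers listed. Values without F2212 are given beside some of the results that it moved. All 6 hepatocyte markers, Alb, Ttr, Apoa1, Apob, Cps1 and Tat, were abundant in every mouse, with sums of 2118579 to 2499923 in Control and 2382859 to 2592538 in Low AA mice. Markers of other cells of the liver were also present. These are bulk samples, so fewer cells of a type and less RNA per cell cannot be told apart.

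Per kilobase of exon, Cers2 was the most abundant of the 10, at 1603 to 1913 scaled read counts per kilobase over the 8 mice. Degs1 followed at 798 to 973, and neither range touched that of its neighbours. Sgpl1 at 243 to 356 and Smpd1 at 285 to 356 could not be ordered, since their ranges overlapped. Asah1 at 206 to 251 lay below Smpd1 but overlapped Sgpl1, and it also overlapped Sptlc1 at 171 to 229, which in turn overlapped Ugcg, whose highest value was 203. The lowest were Sptlc2 at 45.0 to 53.1, Smpd3 at 11.5 to 100.3 and Cers6 at 13.1 to 51.6, again with overlap between neighbours. The exon length of a gene is the union over all its annotated transcripts, so genes with long or alternative transcript ends are placed lower than their used transcripts would be.

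**Figure D2:**
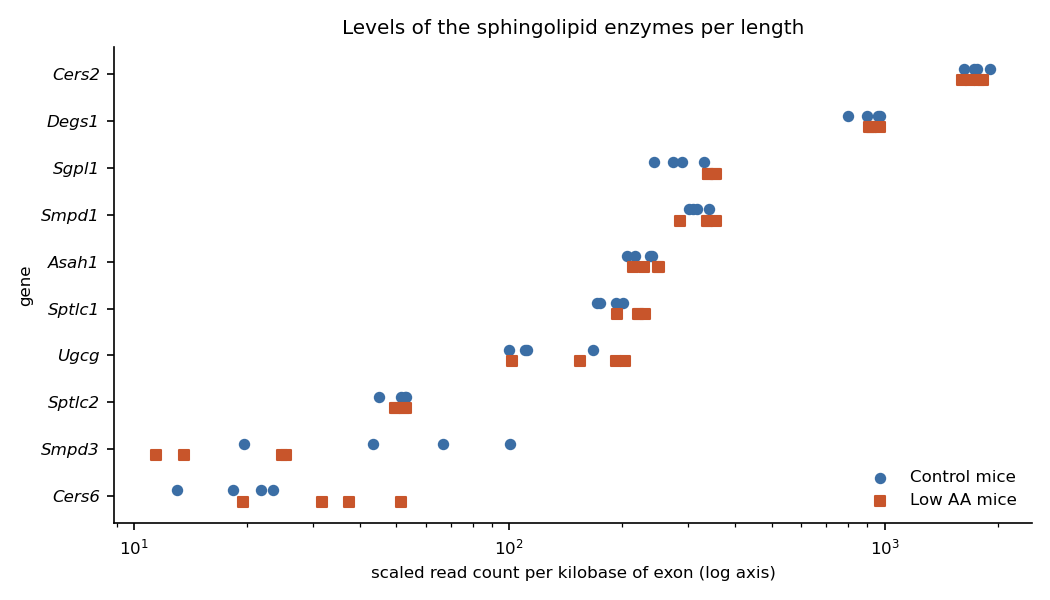
Scaled read counts per kilobase of exon (horizontal log axis) of the 10 enzymes, ordered by their median over 8 mice, with Control mice as blue circles and Low AA mice as orange squares. Cers2 at 1603 to 1913 and Degs1 at 798 to 973 are clear of all others, while Smpd3 and Cers6 have the widest spread.

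The first step is carried out by serine palmitoyltransferase, a complex of SPTLC1 with the catalytic subunit SPTLC2. Sptlc1, on chromosome 13 from 53332748 to 53377417 on the minus strand (GRCm38), had scaled read counts of 716, 608, 620 and 683 in the Control mice and 816, 788, 784 and 690 in the Low AA mice. Of the Low AA mice, 3 lay above every Control mouse and H1315, at 690, lay below Control mouse F129. The means were 657 ± 51.4 and 770 ± 54.9 (SD, n = 4 each), giving a log2 fold change of 0.23 (95% confidence interval 0.00 to 0.45, unadjusted p = 0.0462 and adjusted p = 0.416 in limma). The log2 fold change of Sptlc1 was 0.19 without F2212. With each of the 8 mice left out in turn, its unadjusted p was under 0.05 only without F129 or H1315. With all mice it was 0.0693 with every mouse scaled to the same total and 0.0562 without a mean-variance trend. Sptlc2 had 419, 431, 429 and 365 in the Control mice and 431, 406, 426 and 404 in the Low AA mice. The diets overlapped for Sptlc2, with a log2 fold change of 0.02 and an interval of -0.20 to 0.24. Per kilobase, Sptlc1 was 3.22 to 4.27 times as abundant as Sptlc2 in Control mice and 3.90 to 4.43 times in Low AA mice.

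Ceramide synthases differ in the fatty acid they attach. CERS2, the main ceramide synthase of liver, prefers very long chains, and CERS6 prefers palmitoyl-CoA. Cers2 had scaled read counts of 6380, 5978, 7031 and 6483 in the Control mice and 6569, 5894, 6218 and 6718 in the Low AA mice. The Low AA values lay within the Control range but for H828, the lowest of the 8, and the log2 fold change was -0.03 with an interval of -0.23 to 0.18.

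Cers6, on chromosome 2 from 68861145 to 69114284 on the plus strand, had 163, 116, 194 and 208 in the Control mice and 333, 458, 282 and 173 in the Low AA mice. Here 3 Low AA mice lay above every Control mouse, and the remaining one, H1315 at 173, lay inside the Control range. The means were 170 ± 40.8 and 312 ± 118 (SD, n = 4 each), giving a log2 fold change of 0.82 with a standard error of 0.28 (95% confidence interval 0.19 to 1.44, unadjusted p = 0.0154 and adjusted p = 0.276 in limma). The log2 fold change was 1.07 without H1315 (limma adjusted p = 0.102), 0.65 without F2212 and 0.60 without H828. Among the 4 ceramide synthase genes listed, Cers2, Cers4, Cers5 and Cers6, the share of Cers6 per kilobase was 0.781% to 1.29% in Control mice and 1.04% to 3.07% in Low AA mice. Cers2 made up 97.0% to 97.4% in Control mice and 95.4% to 97.4% in Low AA mice, so the share of Cers6 stayed small in every mouse.

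Degs1 encodes the desaturase that turns dihydroceramide into ceramide. It had scaled read counts of 2329, 2068, 2493 and 2522 in the Control mice and 2359, 2391, 2395 and 2522 in the Low AA mice. The highest Control and the highest Low AA mouse had the same value, and the log2 fold change was 0.04 with an interval of -0.16 to 0.25. Ugcg encodes ceramide glucosyltransferase, which starts most glycosphingolipids. It had 872, 521, 575 and 582 in the Control mice and 1001, 1058, 806 and 530 in the Low AA mice. Ugcg overlapped between the diets at both ends, through F129, the highest Control mouse, and H1315, the lowest Low AA mouse. Its log2 fold change was 0.39 with an interval of -0.11 to 0.90 (unadjusted p = 0.116 and adjusted p = 0.561 in limma), and it was 0.60 without H1315 and 0.27 without H828.

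The 2 sphingomyelinases among the 10 act in different places. SMPD1 is the acid enzyme of lysosomes and the secretory pathway, and SMPD3, also called neutral sphingomyelinase 2, acts at the plasma membrane and the Golgi. Smpd1 had scaled read counts of 1005, 1134, 1033 and 1053 in the Control mice and 950, 1189, 1131 and 1123 in the Low AA mice. Both the lowest and the highest value were in Low AA mice, and the log2 fold change was 0.05 with an interval of -0.17 to 0.27.

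Smpd3, on chromosome 8 from 106252548 to 106337965 on the minus strand, had 348, 103, 227 and 525 in the Control mice and 133, 71, 60 and 130 in the Low AA mice. The Control mice spread over more than the Low AA mice, and F2212, at 103, lay below 2 of the 4 Low AA mice while the other 3 Control mice lay above all of them. The means were 301 ± 180 and 98.5 ± 38.4 (SD, n = 4 each), giving a log2 fold change of -1.45 with a standard error of 0.45 (95% confidence interval -2.46 to -0.45, unadjusted p = 0.00918 and adjusted p = 0.223 in limma). Without F2212 the log2 fold change was -1.89 and passed the threshold (limma adjusted p = 0.0497), and in the 7 other fits that leave out a mouse it did not, with -1.11 without Control mouse F2110. The adjusted p over these fits ran from 0.0497 to 0.545. Within a diet, the SD of Smpd3 was 0.82 on the log2 scale, larger than that of 98.8% of all genes, where the median gene had 0.22. The study displayed Smpd3 among genes picked from these same mice, so its difference is not independent of that choice.

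Asah1 encodes the acid ceramidase of lysosomes, which releases sphingosine from ceramide. It had scaled read counts of 733, 816, 700 and 804 in the Control mice and 777, 847, 852 and 726 in the Low AA mice. The diets overlapped, with a log2 fold change of 0.07 and an interval of -0.15 to 0.29. Per kilobase, the ratio of Smpd1 to Asah1 lay between 1.24 and 1.57 in all 8 mice, and both ends of that range were Low AA mice.

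Sgpl1, on chromosome 10 from 61098642 to 61147684 on the minus strand, encodes sphingosine 1-phosphate lyase, the enzyme of the only exit from the pathway. It had 1776, 1677, 2024 and 1490 in the Control mice and 2173, 2086, 2184 and 2074 in the Low AA mice. Every Low AA mouse lay above every Control mouse, with a gap from F7111 at 2024 to H1315 at 2074. The means were 1742 ± 222 and 2129 ± 57.3 (SD, n = 4 each), giving a log2 fold change of 0.30 with a standard error of 0.11 (95% confidence interval 0.06 to 0.53, unadjusted p = 0.0172 and adjusted p = 0.284 in limma). With every mouse scaled to the same total the log2 fold change was also 0.30, but the diets overlapped. With single mice left out it ran from 0.23 without F2110 to 0.37 without F7111, and it did not pass the threshold in any of these fits.

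Thus 5 of the 10 genes, Sptlc2, Cers2, Degs1, Smpd1 and Asah1, had log2 fold changes between -0.03 and 0.07, with 95% confidence intervals that reached no further than -0.23 and 0.29. For these 5 genes the SD within a diet was 0.09 to 0.11 on the log2 scale, and at most 11.0% of all genes had a smaller one. The other 5 had intervals that reached further, up to 0.90 for Ugcg and 1.44 for Cers6. Low AA mouse H1315 was the lowest of its diet for 6 of the 10 genes, and Control mouse F2212 was also the lowest of its diet for 6.

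**Figure D3:**
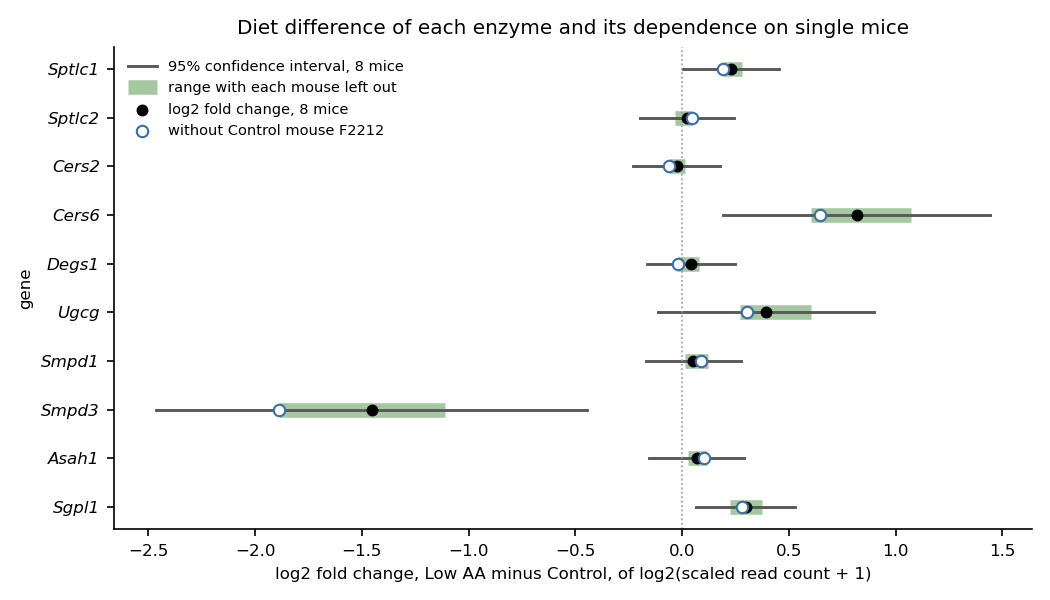
Log2 fold change of each enzyme, Low AA minus Control, on the scale of log2(scaled read count + 1), with its 95% confidence interval from limma (lines), the range when each mouse is left out (green bands) and the value without Control mouse F2212 (open circles). Smpd3 is the only gene with a log2 fold change below -1, at -1.45, and moves furthest with the mouse left out, from -1.89 to -1.11.

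The rest of the pathway was read from a list of 79 genes, the 10 included, of which 62 were in the table. None of the 62 passed the threshold in limma (0.399% of all genes did). At an unadjusted p under 0.05, 12 had positive and 7 negative log2 fold changes, against 5.13% and 6.7% of all genes. This list, too, was drawn up with earlier results of these data known, so the contrast is a description only. The diets did not overlap for 7 higher and 3 lower, against 3.26% and 3.55% of all genes. With every mouse scaled to the same total, the diets overlapped for Kdsr, Sgms1, St3gal2, S1pr2 and B4galnt1 as well as for Sgpl1. These are most of the genes just counted as without overlap. The share of all genes without overlap after that scaling is not given here, so no excess over the background is shown for it. Statements of no overlap below are for the values before that scaling. The median log2 fold change of the 62 was 0.04. The 15 genes outside the 10 enzymes that had an unadjusted p under 0.05 had adjusted p-values from 0.113 to 0.422, so none of the differences given below passed after adjustment.

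In the first steps, Kdsr encodes the reductase that follows serine palmitoyltransferase. Its scaled read counts were 804, 816, 738 and 599 in the Control mice and 1017, 1237, 1058 and 862 in the Low AA mice. The diets did not overlap for Kdsr, and the log2 fold change was 0.50 (adjusted p = 0.176 in limma). The Ormdl genes, whose products restrain serine palmitoyltransferase, had log2 fold changes of -0.15 for Ormdl1, -0.19 for Ormdl2 and -0.01 for Ormdl3, with adjusted p-values of 0.694 or more in limma.

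Ceramide is passed on by enzymes that add a head group. Sgms1, a sphingomyelin synthase of the Golgi, had 387, 402, 405 and 437 in the Control mice and 558, 567, 529 and 460 in the Low AA mice. Cerk, the ceramide kinase, had 230, 161, 193 and 196 in the Control mice and 266, 257, 351 and 269 in the Low AA mice. Neither gene overlapped between the diets, with log2 fold changes of 0.37 for Sgms1 and 0.55 for Cerk (limma adjusted p = 0.178 and 0.16). Without F2212 that of Cerk was 0.46. Sgms2, the other main sphingomyelin synthase, had a log2 fold change of -0.12, and Col4a3bp, the ceramide transfer protein, had 0.20.

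Beside Smpd3, the neutral sphingomyelinase gene Smpd2 had 783, 750, 703 and 605 in the Control mice and 536, 504, 550 and 718 in the Low AA mice. H1315, at 718, lay among the Control mice, and the log2 fold change was -0.31 (limma adjusted p = 0.412). Of the ceramidases, Acer3, an alkaline ceramidase of the endoplasmic reticulum and Golgi, had 268, 254, 295 and 268 in the Control mice and 395, 437, 328 and 339 in the Low AA mice. All 4 Low AA mice lay above the Control mice for Acer3, and the log2 fold change was 0.46 (adjusted p = 0.156 in limma). The 4 ceramidase genes listed, Asah1, Asah2, Acer2 and Acer3, all had log2 fold changes above 0, from 0.04 to 0.46.

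Among genes of sphingosine 1-phosphate, the phosphatase gene Sgpp1 had a log2 fold change of 0.25 and the lipid phosphatase gene Plpp2, listed under the older symbol Ppap2c, had -0.43 (limma adjusted p = 0.416 and 0.279). Without F2212 that of Sgpp1 was 0.17 (unadjusted p = 0.121 in limma) and that of Plpp2 was -0.33. The receptor gene S1pr2 had 139, 198, 118 and 122 in the Control mice and 117, 101, 95 and 95 in the Low AA mice. The diets touched without overlapping for S1pr2, with 118 against 117, and the log2 fold change was -0.47 (limma adjusted p = 0.333). It was -0.31 without F2212, which had the highest value. Apom, whose product carries sphingosine 1-phosphate in plasma, had a log2 fold change of 0.09, and Sphk2, a sphingosine kinase, had -0.10.

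The smallest p of the whole list was that of St3gal5, which encodes GM3 synthase, the enzyme that adds sialic acid to lactosylceramide. It had scaled read counts of 10584, 8898, 13099 and 10453 in the Control mice and 15421, 13883, 18597 and 16426 in the Low AA mice. The diets did not overlap, and the means were 10759 ± 1738 and 16082 ± 1976 (SD, n = 4 each). The log2 fold change was 0.59 (95% confidence interval 0.28 to 0.89, unadjusted p = 0.00145 and adjusted p = 0.113 in limma), and it was 0.50 without F2212. B4galnt1, which encodes the enzyme that extends GM3 to GM2, had 2905, 2573, 2515 and 2553 in the Control mice and 2069, 2435, 2277 and 2323 in the Low AA mice. Every Low AA mouse lay below every Control mouse, and the log2 fold change was -0.21 (adjusted p = 0.409 in limma). Without F2212 that of B4galnt1 was -0.22, with an unadjusted p of 0.0515 in limma. St3gal2, which adds sialic acid further along the ganglioside chains and was also displayed by the study from these mice, had a log2 fold change of 0.80 without overlap (adjusted p = 0.145 in limma). Plekha8, whose product moves glucosylceramide from the early Golgi, had 0.44 (limma adjusted p = 0.21).

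Of 12 genes of glycosphingolipid breakdown, Gba2, the glucosylceramidase outside lysosomes, had a log2 fold change of -0.38, the GM2 activator gene Gm2a had -0.28 and the arylsulfatase gene Arsa had 0.30 (limma adjusted p = 0.379, 0.338 and 0.422). For Arsa the log2 fold change was 0.20 without F129 and 0.41 without F2212, and with single mice left out its unadjusted p was under 0.05 only without F2212. Gm2a had 1243, 1325, 1142 and 1086 in the Control mice and 1071, 873, 961 and 1059 in the Low AA mice, without overlap. Without F2212 the unadjusted p in limma was 0.0664 for Gm2a and 0.0579 for Gba2. Psap, the precursor of the saposins that some of the lysosomal enzymes need, had 19100 to 22085 in Control and 20022 to 21931 in Low AA mice. Its log2 fold change was 0.01.

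**Figure D4:**
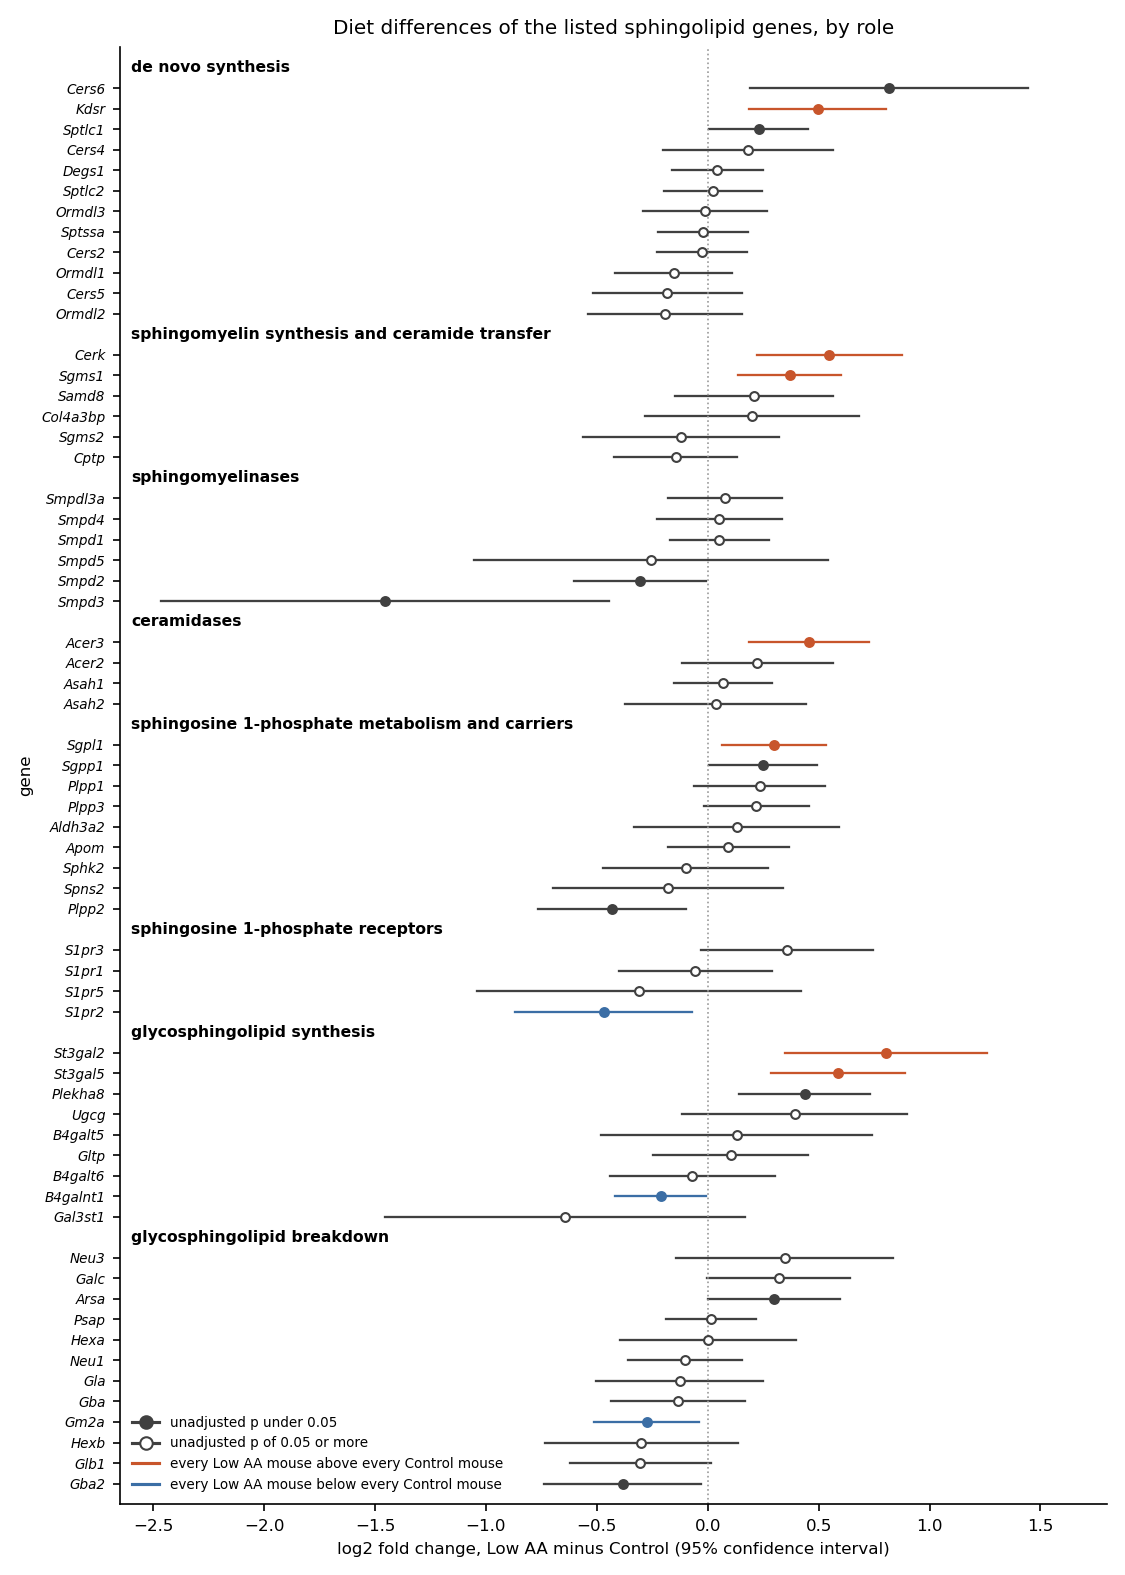
Log2 fold changes, Low AA minus Control, with 95% confidence intervals from limma for the 62 listed genes of sphingolipid metabolism, grouped by role; filled points have an unadjusted p under 0.05, and coloured genes do not overlap between the diets. St3gal5, at 0.59, and St3gal2, at 0.80, lie to the right and Smpd3, at -1.45, furthest to the left, and none of the 62 passes the adjusted threshold.

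Smpd3 was the member with the smallest p. The 5 genes whose profile over the 8 mice lay closest to it, by the root mean square distance between log2 values centred on each gene's mean, were Acpp, Krt19, Fmn2, Blm and Gstp1, at distances of 0.41 to 0.54. The distance was taken over both diets, so genes with a diet difference like that of Smpd3 lie close by construction. Log2 fold changes were -1.61 for Acpp, -0.87 for Krt19, -1.17 for Fmn2 and -0.86 for Blm. That of Gstp1 was -1.29, and only Gstp1 of the 5 passed the threshold (limma adjusted p = 0.0158). Krt19, a marker of bile duct cells, had 43, 28, 27 and 70 in the Control mice and 30, 17, 16 and 23 in the Low AA mice. All 4 of the 5 bile duct markers that were listed, Krt19, Epcam, Sox9 and Spp1, had log2 fold changes below 0, with Krt19 and Sox9 at an unadjusted p under 0.05 (11.8% of all genes were), and their summed scaled read counts were 1124 to 2265 in Control and 826 to 1316 in Low AA mice. None of these 4 markers passed the threshold in limma or was at 0 in all mice, and their part in the Smpd3 result was not tested. Most of the bile duct sum in each mouse came from Spp1 (unadjusted p = 0.166 in limma). The bile duct sums overlapped between the diets, as did the sums for other cell types. The 6 Kupffer cell markers summed to 5091 to 6669 in Control and 5299 to 7092 in Low AA mice. All 6 had log2 fold changes above 0, with Adgre1 at 0.29 (unadjusted p = 0.0473 and adjusted p = 0.418 in limma). The 6 sinusoidal endothelial markers summed to 4858 to 6945 and 5946 to 6600, and the 6 stellate cell markers to 2562 to 3527 and 2631 to 3390. Of the stellate markers, Col1a1 did not overlap between the diets, and the log2 fold change was -1.07 (adjusted p = 0.148 in limma). The 4 blood markers listed, Hbb-bs, Hba-a1, Hba-a2 and Alas2, summed to 7206 to 27464 in Control and 9211 to 13541 in Low AA mice. All 4 had log2 fold changes below 0, Hba-a1 and Alas2 had an unadjusted p under 0.05, and Alas2 did not overlap between the diets, with -0.49 (adjusted p = 0.266 in limma). The part of the Kupffer cell, blood and stellate markers in the results was not tested.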

How the data were processed

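Liver RNA libraries (stranded, poly(A)-selected) of 4 Control and 4 Low AA mice were compared, with each mouse as 1 replicate. The deposited table gives a signal per gene in each mouse, a read count that the authors scaled by a method not given in the sources used here and then rounded, and it also holds their own fold change and FDR, which were not used. The submitters' processing notes name mm10, bcl2fastq 1.8.2, STAR 2.5.0a, RSEM 1.2.6, edgeR 3.10.5 and R 3.2.1. Earlier results of these data describe the values as scaled and rounded, so count models were not applied. Every gene had at least 28 in 3 or more mice. Values were analysed as log2(value + 1) in limma 3.58.1 (R 4.3.3) with a mean-variance trend, two-sided, and the code was tested on simulated data. Cage allocation is not given in the sources used here, so mice may share a cage.

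Older symbols were matched through synonyms in an NCBI RefSeq table, from which positions (GRCm38.p6, the assembly of mm10) were also taken. A synonym that is the symbol of another gene was not used. Exon lengths are from GENCODE M21. The members and lists were chosen with earlier results of these data known. Genes named are the 10 enzymes, genes of the wider list with an unadjusted p under 0.05 or no overlap, the cell type markers and the 5 genes closest to the enzyme with the smallest p. Cers4, Cers5, Ormdl1, Ormdl2, Ormdl3, Sgms2, Col4a3bp, Asah2, Acer2, Apom, Sphk2 and Psap were named outside this rule, after their values were seen. Figures were drawn with matplotlib 3.10.9.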

Additional observations from a re-analysis of the deposited data

Results flagged for a closer look

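In groups of 4 mice, 3 of 50 examined, for 25 named genes in 2 diets, had 1 mouse far from the others, where chance gives about 1 in 20. For Sptlc2, Control mouse F2110 was low, with a scaled read count of 365 against 419 to 431 (gap over range 0.83). For Cerk, Low AA mouse H817 was high, with 351 against 257 to 269 (gap over range 0.854). For B4galnt1, Control mouse F129 was high, with 2905 against 2515 to 2573 (gap over range 0.842).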

How the results depend on the processing

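No paired analysis was possible because the mouse codes are not shared between the diets. The 47 genes called among all genes became 19 when only the 8000 genes with the highest mean were tested, a filter that kept 9 of the 10 enzymes and left out Smpd3, and 30 without a mean-variance trend. With single mice left out the count ran from 16 without H817 to 77 without F2212, and it was 19 without H828, 21 without H1126 and 29 without F129. The count of the 10 enzymes called ran from 0 to 1 and that of the wider list from 0 to 1, the 1 being Smpd3 without F2212 in both. The count of enzymes at an unadjusted p under 0.05, 4 in all mice, ran from 2 without F2110 to 5 without F129 or H1315. That of the wider list, 19, ran from 12 without H817 to 17. The shares of all genes at an unadjusted p under 0.05 in the same fits are not given here, so these counts have no background beside them. The count of enzymes without overlap, 1, was 0 with equal totals, for which the share of all genes is not given here. With single mice left out this count ran from 1 to 3. It was 2 without F129 (9.7% of all genes did not overlap among the same 7 mice) or F2212 (11.7%), and 3 without H1315 (12.7%). Signs turned for 3 enzymes near 0 when a mouse was left out, with log2 fold changes of -0.033 to 0.047 for Sptlc2, -0.063 to 0.015 for Cers2 and -0.018 to 0.077 for Degs1. Of 346 values of 25 named genes under other settings, 341 kept their sign and their side of the threshold. None of the 25 passed with all mice, and most were named for an unadjusted p under 0.05 in these data. Few values could therefore change side, and the count of 341 is no measure of robustness. The cause of the shifts between settings was not tested. With 4 mice per diet and unknown depth, differences of the size seen for Sptlc1 or Sgpl1 could not be separated from the spread after adjustment.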

Other observations

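St3gal5 and B4galnt1, whose products make GM3 and extend it, had log2 fold changes of opposite sign. Per kilobase, the ratio of St3gal5 to B4galnt1 was 4.81, 4.56, 6.87 and 5.40 in Control mice F129, F2212, F7111 and F2110, and 9.83, 7.52, 10.8 and 9.33 in Low AA mice H1126, H828, H817 and H1315. The lowest Low AA ratio was above the highest Control ratio. This had to be so, since neither gene overlapped between the diets and the differences ran in opposite directions. This pair was chosen after its values were seen and neither gene passed the adjusted threshold, so the ratio is a description with no test.

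The ratio of Smpd1 to Smpd3 per kilobase was 4.53, 17.3, 7.13 and 3.14 in the same Control mice and 11.2, 26.3, 29.6 and 13.5 in the same Low AA mice. F2212, at 17.3, lay above H1126 and H1315, and the other 3 Control mice lay below all 4 Low AA mice.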
